A study of Mus musculus with 14 samples.

Results

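The chromatin accessibility of 4T1 cells after 6 h of hypoxia was compared with that of 4T1 cells in normoxia. 4T1 is a mouse mammary carcinoma cell line, used without genetic modification. The 6 h list held 49006 accessible regions (peaks) and the normoxia list 60070, together 109076 of the 463526 peaks in the 7 lists of the series. Members were chosen by overlap alone. A 6 h peak with no base in common with any normoxia peak was counted as gained, a normoxia peak with no base in common with any 6 h peak as lost, and all others as shared.

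The series followed 4T1 cells in normoxic culture and at 1% oxygen, for 6, 12 or 24 h and for 36, 48 or 72 h, with 2 samples in each of 7 groups. Nothing in the labels says that the samples of a group were separate cultures. The hypoxic cells were grown, trypsinised and fixed inside a hypoxia workstation, so that they met no air before fixation. The oxygen level of the normoxic culture is not given in the labels. Their treatment text names the 1% oxygen workstation for the normoxic samples too, while the source name says normoxic culture. In the study's flow cytometry figure the control 4T1 cells were kept at an oxygen level above 1% but below that of air. Each list was called on the merged reads of both samples of its group, so 4 samples entered this comparison as 2 lists, with no replicate error and no test of any difference between them.

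ATAC-seq measures accessibility with a transposase that inserts sequencing adapters into DNA not covered by nucleosomes, and a peak is a stretch where such insertions pile up. When oxygen falls, prolyl hydroxylases (Egln genes) can no longer mark the alpha subunits of hypoxia-inducible factor (HIF) for destruction by the VHL ligase. HIF then pairs with ARNT and binds a short core sequence beside genes of glycolysis, acid export, angiogenesis and collagen modification. Much of the remaining accessible landscape of an epithelial tumour line is carried by AP-1 sites, promoters and sites of the insulator protein CTCF.

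The label of the cells was compared with their markers first. Of 15 genes of epithelial identity, 14 had a promoter peak in both lists, among them Epcam, Cdh1 and Krt8, and Cldn7 had one in neither. Of 10 immune markers only Cd68 and Cd14 had a promoter peak, in both lists, and of 10 fibroblast and endothelial markers only Col1a2 and Pdgfra. Ptprc, Cd3e and Pecam1 had none in either list.

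Gained promoters and a gained distal region are shown first, picked because they held the letters of the HIF core. The core was no more frequent in gained than in shared peaks, as given with the counts of all strings. All sequences are from the plus strand of mm9, up to 100 bases on each side of the peak summit, cut where an untranslated exon starts. In the following set capitals mark the HIF core, searched as ACGTG or GCGTG on both strands.
P4ha2 promoter, gained, chr11:53914287-53914425: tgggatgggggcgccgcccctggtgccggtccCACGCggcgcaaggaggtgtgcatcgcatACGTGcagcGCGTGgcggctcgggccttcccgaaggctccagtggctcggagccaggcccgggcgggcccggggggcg
Fosb promoter, gained, chr7:19895639-19895839: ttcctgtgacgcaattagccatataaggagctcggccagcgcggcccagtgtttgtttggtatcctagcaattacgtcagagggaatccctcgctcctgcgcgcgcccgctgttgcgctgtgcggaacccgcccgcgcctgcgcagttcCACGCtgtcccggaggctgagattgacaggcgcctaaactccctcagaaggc
Zfp148 promoter, gained, chr16:33400333-33400530: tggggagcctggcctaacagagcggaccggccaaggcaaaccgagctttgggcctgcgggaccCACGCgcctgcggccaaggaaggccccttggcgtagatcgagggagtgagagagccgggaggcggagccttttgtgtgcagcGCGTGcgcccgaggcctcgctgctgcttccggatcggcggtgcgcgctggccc
Region near Ldha, gained, chr7:54111133-54111333: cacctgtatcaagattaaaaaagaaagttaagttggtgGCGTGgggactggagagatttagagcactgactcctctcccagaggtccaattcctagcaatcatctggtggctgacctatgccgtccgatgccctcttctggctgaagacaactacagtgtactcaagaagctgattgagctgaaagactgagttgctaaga

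P4ha2, which encodes a subunit of the prolyl 4-hydroxylase that modifies collagen, held 3 copies of the HIF core next to the summit of its gained promoter peak. A match is a string of letters and says nothing of occupancy. In the next set are the strongest gained region, which lacks the AP-1 string, and regions picked because they hold it, from the strongest gained and lost regions and the lost Il1a promoter. Capitals mark the AP-1 string TGANTCA, in which N is any base, read on either strand. N is T near Csnk1d, A in Evi5 and G in the other marked regions. Counts of this string are therefore not counts of AP-1 sites.
Fbxw4 intron, gained, chr19:45724519-45724719: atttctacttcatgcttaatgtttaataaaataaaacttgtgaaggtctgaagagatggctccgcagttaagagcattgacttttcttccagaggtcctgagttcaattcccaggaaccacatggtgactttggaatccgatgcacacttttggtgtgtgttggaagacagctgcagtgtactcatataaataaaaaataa
Region nearest to Csnk1d, gained, chr11:120858123-120858323: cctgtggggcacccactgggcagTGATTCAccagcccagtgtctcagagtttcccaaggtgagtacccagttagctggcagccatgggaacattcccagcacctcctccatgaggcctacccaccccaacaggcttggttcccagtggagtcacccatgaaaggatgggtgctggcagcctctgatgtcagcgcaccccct
Evi5 intron, lost, chr5:108231751-108231951: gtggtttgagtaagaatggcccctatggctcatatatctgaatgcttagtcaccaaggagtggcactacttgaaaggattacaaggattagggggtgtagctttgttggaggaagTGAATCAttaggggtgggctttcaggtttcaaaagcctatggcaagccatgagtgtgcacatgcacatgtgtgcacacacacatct
Ankrd55 upstream, lost, chr13:113077411-113077611: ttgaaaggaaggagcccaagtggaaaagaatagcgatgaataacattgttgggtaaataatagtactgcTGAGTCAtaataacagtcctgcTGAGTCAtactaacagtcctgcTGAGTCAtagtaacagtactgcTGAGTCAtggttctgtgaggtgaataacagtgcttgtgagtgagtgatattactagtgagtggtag
Mzt1 intron, lost, chr14:99437017-99437217: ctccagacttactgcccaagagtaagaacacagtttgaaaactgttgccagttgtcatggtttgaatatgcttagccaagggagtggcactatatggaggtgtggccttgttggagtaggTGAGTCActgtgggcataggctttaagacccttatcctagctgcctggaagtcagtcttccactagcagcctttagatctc
Il1a promoter, lost, chr2:129135709-129135811: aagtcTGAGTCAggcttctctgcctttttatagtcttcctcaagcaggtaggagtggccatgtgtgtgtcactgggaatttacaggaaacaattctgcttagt

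The lost region upstream of Ankrd55 carried 4 copies of TGAGTCA, each 22 bases from the one before. The gained Fbxw4 region held neither the HIF core, nor the AP-1 string, nor the CTCF string. Its window shares runs of letters with the one near Ldha, and the Evi5 window with that of Mzt1. Whether these or other named regions lie in repeated sequence, and whether reads map there uniquely, was not checked. In the last set, 2 lost regions outside promoters, capitals mark the CTCF string, which is CCA, any 2 bases, AG, any 2 bases and GGC, read on either strand.
Region nearest to Zfp322a, lost, chr13:23421763-23421963: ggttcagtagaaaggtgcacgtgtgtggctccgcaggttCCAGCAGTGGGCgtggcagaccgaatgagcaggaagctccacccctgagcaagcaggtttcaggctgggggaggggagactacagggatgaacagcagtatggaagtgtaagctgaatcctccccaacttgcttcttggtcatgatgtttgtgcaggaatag
Kpna7 intron, lost, chr5:145759516-145759716: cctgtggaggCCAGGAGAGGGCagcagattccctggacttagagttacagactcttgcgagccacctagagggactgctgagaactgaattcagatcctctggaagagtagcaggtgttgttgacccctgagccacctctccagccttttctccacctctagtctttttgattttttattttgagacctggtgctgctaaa

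Most accessible regions were shared between normoxia and 6 h. Of the 49006 peaks at 6 h, 6964 were gained, 14.2% (exact 95% interval 13.9 to 14.5%), and of the 60070 normoxia peaks 18279 were lost, 30.4% (30.1 to 30.8%). These shares are the background for every count below, and their intervals cover counting error only. On the 20000 peaks of highest fold enrichment in each list, 4353 peaks were specific to 6 h (21.8%, 21.2 to 22.3%) and 4366 to normoxia (21.8%, 21.3 to 22.4%). With lists of equal length these counts must be nearly equal, so their balance is no result. Fold enrichment is the ratio of reads at the summit to the local background within the same list, with a constant added to both. The peak at rank 20000 and the next one outside had the same fold, 7.89 in normoxia and 5.57 at 6 h, so both thresholds fell within ties.

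Few of the strongest regions were without any counterpart in the other list. Of the 4353 peaks specific to 6 h among the 20000 strongest, 4245 (97.5%) overlapped a weaker peak of the full normoxia list, and 108 had none. Of the 4366 specific to normoxia, 3866 (88.5%) overlapped a weaker 6 h peak and 500 had none. Against the full other list, 0.54% of the 20000 strongest 6 h peaks were thus gained and 2.5% of the 20000 strongest normoxia peaks were lost.

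Gained and lost peaks were weak. The median fold enrichment was 3.49 in gained peaks against 5.41 in shared peaks of the 6 h list, and 4.55 in lost peaks against 7.63 in shared peaks of normoxia. The median -log10 q-value was 3.88 against 11.9 at 6 h and 4.04 against 14.2 in normoxia. Gained peaks had a median of 16 reads at the summit and a width of 254 bp, lost peaks 9 reads and 269 bp, and shared peaks 471 bp at 6 h and 524 bp in normoxia. The share that was gained went from 0.1% of the 1000 strongest 6 h peaks to 40.7% of those past rank 40000. The share that was lost went from 0% of the 1000 strongest normoxia peaks, which allows up to 0.368%, to 61.5% of those past rank 50000.

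**Figure D1:**
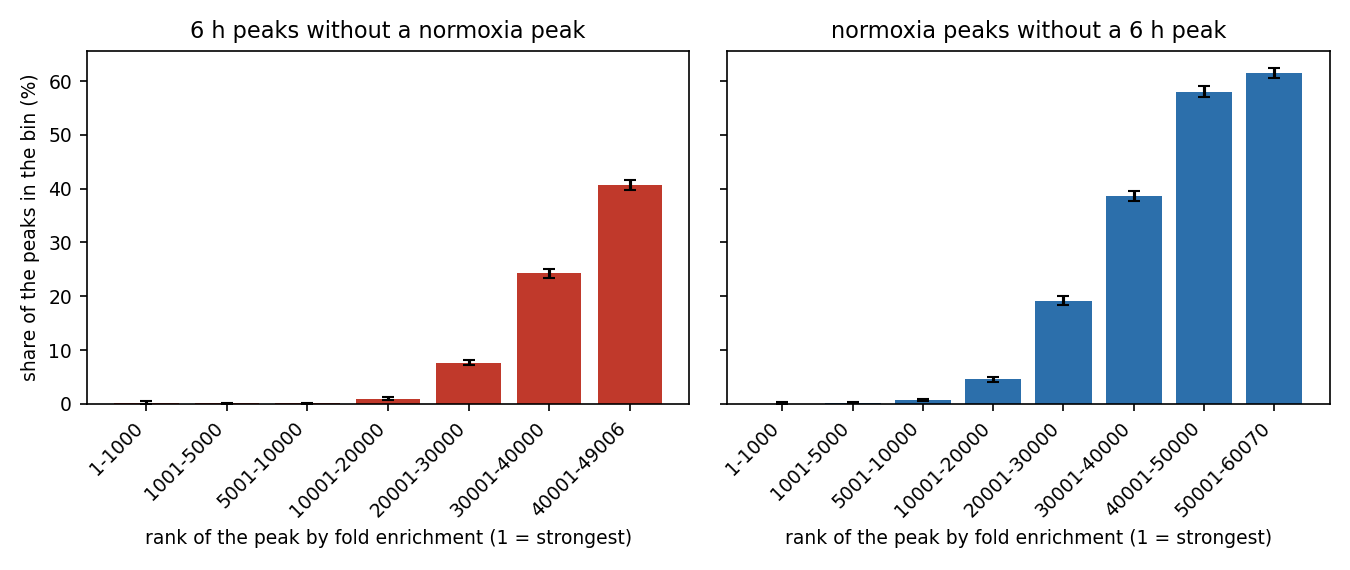
Share of peaks without a peak in the other list (y axis, %) by rank of fold enrichment (x axis, 1 is the strongest), for 6 h peaks on the left and normoxia peaks on the right. Bars are shares and whiskers exact 95% intervals for counting error. Under 1% of the 10000 strongest peaks of either list were without a partner, and over 40% of the weakest.

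The lists differed in depth. The genome-wide background was 0.926 reads in normoxia and 3.25 at 6 h, a ratio of 3.51, and the weakest called peak had 5 reads in normoxia and 11 at 6 h. At an equal multiple of the background, 65.3% of the gained peaks would have had fewer than 5 reads in normoxia, where the median would have been 4.56 reads. By the same rule 17.1% of the shared 6 h peaks would have had fewer than 5 reads, and these were called in normoxia. When the multiple was also moved by the median difference of the shared pairs, 0% fell under 5 reads. With that shift 48.6% of the lost peaks and 6.7% of the shared normoxia peaks would have had fewer than 11 reads at 6 h, and without it 0% of the lost peaks. How much of either class comes from depth was not tested.

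Gained and lost peaks lay away from promoters. A promoter was the stretch within 1 kb of an annotated start of a protein-coding gene. Promoter peaks made up 12.3% of gained peaks (860 of 6964) against 27% of the shared peaks at 6 h, and 7.99% of lost peaks (1460 of 18279) against 27.2% of the shared peaks in normoxia. Introns held 34.7% of gained and 38.6% of lost peaks, against 29.9% of the shared peaks of each list. Intergenic sequence held 49.7% of gained and 50.8% of lost peaks. Coding exons were a small class, with 1.74% of gained against 0.718% of shared 6 h peaks.

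Read the other way, promoter peaks were less often gained or lost than intronic or intergenic ones. Of all promoter peaks, 7.03% at 6 h were gained and 11.4% in normoxia were lost, against 16.1% and 36.1% of intronic peaks and 16.6% and 35% of intergenic peaks. Among the 20000 strongest the order of the directions turned, with 17.3% of promoter peaks specific to 6 h and 10.5% specific to normoxia, still below the intronic shares of 24.2% and 29%. The lower promoter share was also present among peaks of like strength. At ranks 10001 to 20000, 15.2% of gained and 28.9% of shared 6 h peaks were at promoters, and 7.68% of lost and 29.3% of shared normoxia peaks. Past rank 40000 the shares were 14.4% and 19% at 6 h and 8.53% and 21.5% in normoxia.

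**Figure D2:**
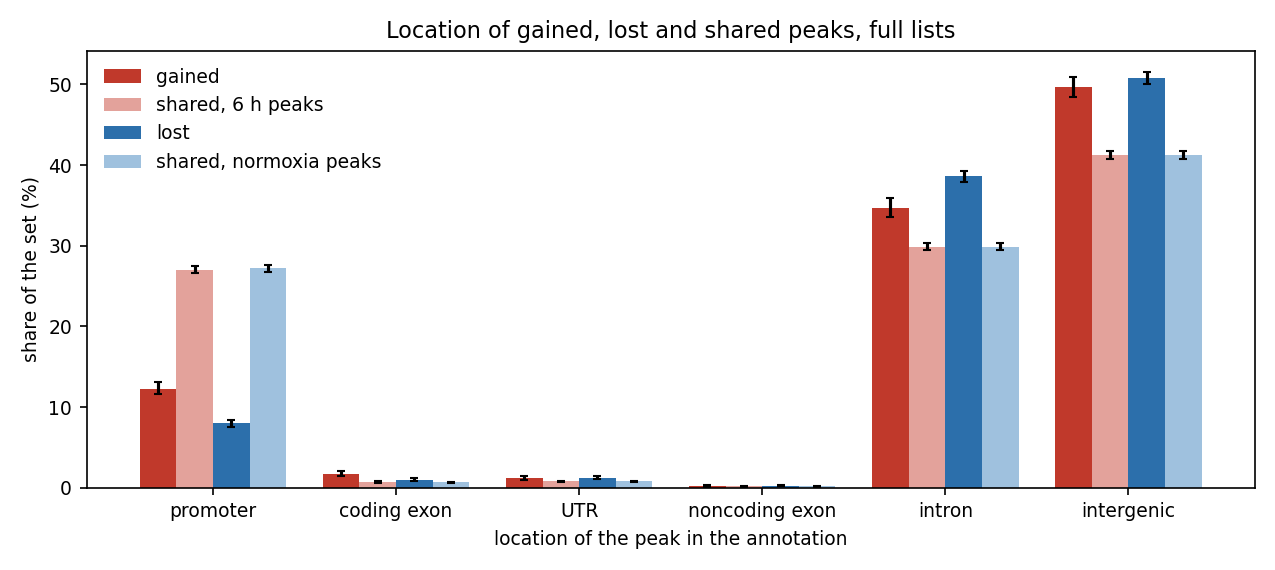
Location of gained, lost and shared peaks of the full lists (x axis) as the share of each set (y axis, %), with exact 95% intervals as whiskers. Promoters hold 12.3% of gained and 7.99% of lost peaks against 27% and 27.2% of the shared sets, and introns and intergenic sequence hold more of the gained and lost peaks.

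Among the 20000 strongest, the promoter share separated the 2 directions. It was 35.5% of all 6 h peaks and 32.8% of all normoxia peaks of that rank. It was 28.2% (26.9 to 29.6%) of the peaks specific to 6 h and 15.8% (14.8 to 17%) of those specific to normoxia, against 37.5% of the shared peaks in both lists. Sequence composition followed the same order. Regions rich in CpG dinucleotides (GC content over 50% and an observed to expected CpG ratio over 0.6) were 23.7% of the peaks specific to 6 h, 11.1% of those specific to normoxia and 33.3% of the shared peaks at 6 h. On the full lists the shares were 7.84% of gained, 3.47% of lost and 22% of shared 6 h peaks. The median GC content was 49% in gained and 46.5% in lost peaks.

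The median distance from a gained peak to the nearest normoxia peak was 7141 bp, with 18% within 1 kb and 58% within 10 kb. From a lost peak to the nearest 6 h peak the median was 11936 bp, with 10.6% within 1 kb and 44.7% within 10 kb. The 6 h list holds fewer peaks, which by itself lengthens the second distance. By chromosome, the gained share went from 9.01% on X to 18.2% on 8, and the lost share from 27.7% on 7 to 37.4% on X. Among the 20000 strongest peaks the share specific to 6 h was 19.3% on X and 16.9% on 8, and the share specific to normoxia 22.8% on X, below chromosomes 15 (25.5%) and 18 (25.7%).

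The letters around distal summits differed between lost and gained peaks. Within 100 bp of the summit, the CTCF string was in 10.8% of lost distal peaks (10.3 to 11.3%) against 3.82% of shared normoxia peaks, and in 4.46% of gained distal peaks (3.95 to 5%) against 3.84% of shared 6 h peaks. In lost peaks the share was higher at each strength past rank 10000, and among the 10000 strongest it rested on 3 of 40 peaks. At ranks 10001 to 20000 the share was 11.6% of lost and 2.87% of shared peaks, at 20001 to 30000 it was 10.7% and 4.21%, and past 40000 it was 10.1% and 5.08%. In gained peaks the share was below that of shared peaks of like strength at ranks 20001 to 30000 (3.27% and 3.84%), at 30001 to 40000 (4.7% and 6.1%) and past 40000 (4.62% and 6.61%), although it was higher over all ranks. Among the 20000 strongest the peaks specific to 6 h had 2.3% against 1.65%. CTCF, the protein that anchors chromatin loops with cohesin, was not itself measured. The CTCF string was in 1.6% of windows of the same length around all 69963 annotated starts.

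AP-1 letters were fewer in gained and lost distal peaks and more frequent in gained and lost promoters. TGANTCA was in 33.1% of gained and 35% of lost distal peaks, against 53.7% of shared distal peaks in each list. At promoters the string was in 13% of gained (10.8 to 15.5%) and 9.45% of shared 6 h peaks, in 17.3% of lost (15.4 to 19.3%) and 9.78% of shared normoxia peaks, and in 4.03% of the windows around all starts. At ranks 20001 to 30000 the shares were 42.2% of gained and 52.9% of shared peaks at 6 h, and 41.6% of lost and 53.7% of shared peaks in normoxia. The HIF core was in 20% of gained, 19.6% of lost and 22.3% of shared 6 h distal peaks. At promoters it was in 40% of gained, 38.2% of lost and 53.5% of shared 6 h peaks, against 37.6% of the windows around all starts. GGGCGG, bound by SP and KLF factors, was in 40.5% of gained, 28.4% of lost and 58.4% of shared 6 h promoters, against 34.5% of all starts. GGAATG, the TEAD string, was in 13.3% of gained and 19.5% of shared 6 h distal peaks, and in 8.23% of all starts. It was in 18.3% of lost and 19.7% of shared normoxia distal peaks. Among the 20000 strongest the order turned in normoxia, with 23.9% of the specific and 21.5% of the shared distal peaks. At 6 h these shares were 16.2% and 21.3%. The strings overlap in part, since a CACGTG box holds the HIF core and the NRF2 string (TGAC, any 3 bases and GC) can overlap the AP-1 string.

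**Figure D3:**
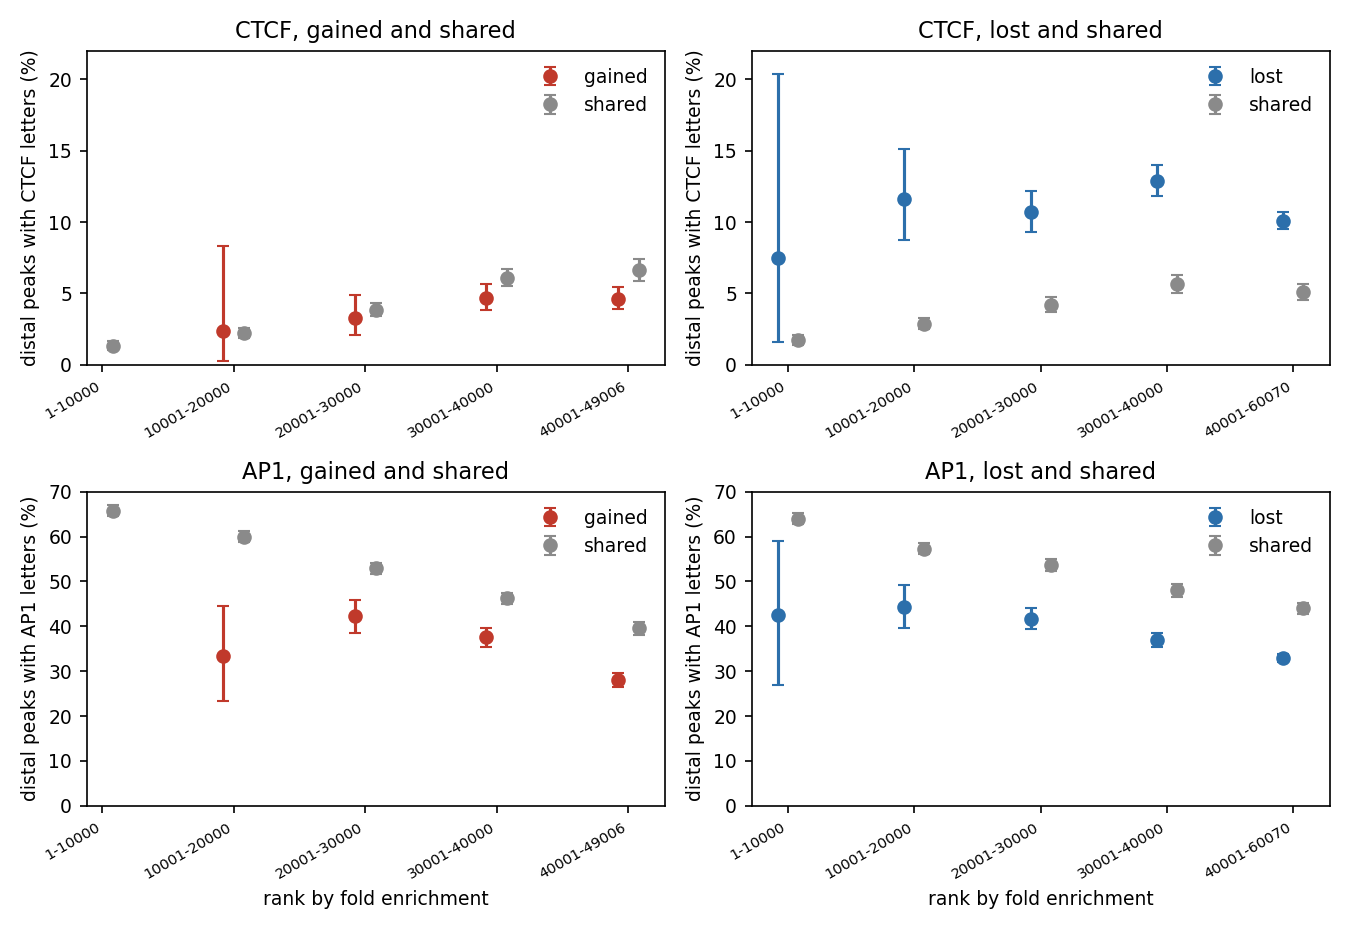
Share of distal peaks (y axis, %) with the CTCF string (top) or the AP-1 string (bottom) within 100 bp of the summit, by rank of fold enrichment (x axis), for gained (red), lost (blue) and shared (grey) peaks, with exact 95% intervals; sets under 20 peaks are not drawn. The CTCF string is more frequent in lost than in shared peaks in every bin except the strongest, where the intervals overlap, and AP-1 letters are less frequent in gained and lost peaks.

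Only 9 of the 10000 strongest 6 h peaks were gained. The strongest lay in an intron of Fbxw4, which encodes an F-box protein (chr19:45724427-45724868), with a fold enrichment of 12.2, a -log10 q of 45.1 and 60 reads. This region had no normoxia peak and a -log10 q of 9.78, 4.97, 23.8, 7.92 and 17.4 at 12, 24, 36, 48 and 72 h. The next lay in an intron of Car10, which encodes a protein related to carbonic anhydrases (chr11:93078617-93079252), with a fold of 9.77 and a -log10 q of 28.2, and of 25.1 at 12 h. Regions near Csnk1d, which encodes casein kinase 1 delta (fold 9.35), Stmn2, which encodes a microtubule-binding stathmin (9.33), and Vmn1r77, a vomeronasal receptor gene (9.18), followed. The remaining 4 were near Myom2, in introns of Scara5 and Ccdc21, and near Gm14496, with folds of 8.47, 7.76, 7.68 and 7.53. Distances to the nearest start were 5579 bp for Csnk1d and 263271 bp for Stmn2, so the name given to an intergenic region is only its nearest gene. All 9 had a peak at 12 h, and 6 had one in each of the 5 later lists.

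The lost peaks among the 10000 strongest of normoxia numbered 44. The strongest lay in an intron of Evi5, which encodes a GTPase-activating protein for Rab proteins (chr5:108231617-108232041), with a fold of 14.7, a -log10 q of 29.3 and 29 reads. It had no 6 h peak and a -log10 q of 38.9, 20.2, 22.5, 13.8 and 1.59 at 12, 24, 36, 48 and 72 h. A region in an intron of Mzt1, a gene of the gamma-tubulin complex, had a fold of 12.9, the highest -log10 q of the 10 (31.5) and 37 reads, and was present in all 5 later lists. The region upstream of Ankrd55 had a fold of 13.4 and a -log10 q of 24.7 in normoxia and 13.6 at 12 h, and was missing from the 24 and 72 h lists. The others of the 10 were near Gm4885, Fndc3c1 and Plk2 and in introns of Snx13, Dcc, 6030446N20Rik and Afap1, with folds from 12.3 to 13. All 44 regions had a peak at 12 h, and 35 had one in each of the 5 later lists, while 6 had 4 and 3 had 3. The 12 h list is the longest, with 81732 peaks, and it held 99.3% of the shared normoxia peaks.

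The string counts of these strong regions were small. AP-1 letters were in 19 of the 44 lost and 2 of the 9 gained regions, the HIF core in 9 and 1, and the CTCF string in 3 and 0. Among the shared distal peaks of the same ranks AP-1 letters were in 64% in normoxia and 65.7% at 6 h. None of the 14 strings was found in 9 of the lost and 3 of the gained regions.

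**Figure D4:**
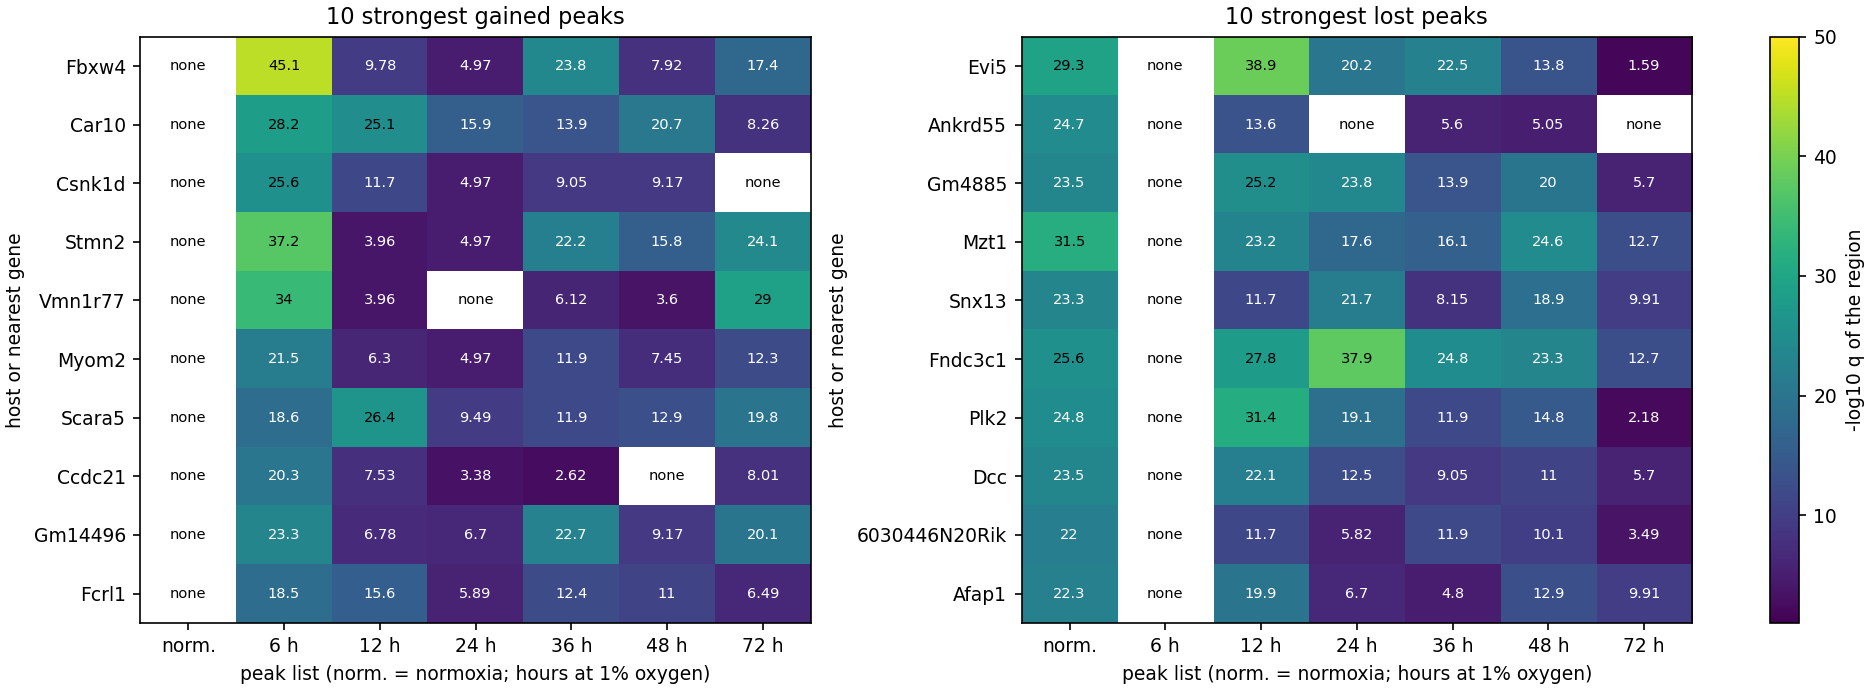
The -log10 q of the 10 gained (left) and 10 lost (right) peaks of highest fold enrichment (rows, by host or nearest gene) in the 7 lists (columns); white cells marked none had no peak. Gained regions had no normoxia peak by definition and appear at 12 h in every row, and the lost regions, absent at 6 h by definition, also appear at 12 h in every row.

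Over all members, later lists contained many regions of both classes. Of the gained peaks 67.5% overlapped a 12 h peak, 52.7% a 24 h peak, 45.1% a 36 h peak, 58% a 48 h peak and 47.8% a 72 h peak. Of the lost peaks the shares were 72.4, 59.8, 44.6, 62.4 and 41.8%. Shared 6 h peaks were present in 92.5 to 99.3%. No later list held a peak for 21.3% of gained and 16.3% of lost peaks, and all 5 did for 25% and 24.7%. The later lists are longer than the 6 h list, with 62695 to 81732 peaks, and each list's length and depth enter these shares.

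The 10 strongest gained promoters, with their fold enrichment, were at Fcrl1 (7.52), Zfp148 (6.48), Parm1 (6.44), Sgsm2 (6.29), Abca5 (6.11), Pcdh17 (6.11), Gm10106 (5.91), Tnk1 (5.88), Gm10807 (5.87) and Vdr (5.79). Zfp148 encodes a zinc finger transcription factor, Abca5 a lipid transporter, Pcdh17 a protocadherin, Tnk1 a tyrosine kinase and Vdr the vitamin D receptor. Zfp148 had a -log10 q of 13.6 at 6 h and of 18.7, 15.7, 11.9, 11 and 4.19 at the later times. Vdr had 12.9 at 6 h, 18.3 at 12 h and 23.1 at 24 h. Of these 10 promoters 9 were present in all 5 later lists, and Gm10807 in 3.

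The 10 strongest lost promoters had higher folds than the gained ones, as the normoxia list did in general, and were at Ankrd55 (13.4), Mad2l1bp (12), Smc1a (10.9), Gm2399 (10.8), Ddx52 (10.4), Mfap1b (10), Dnahc17 (9.91), Tph2 (9.9), Eif3d (9.9) and Ccdc55 (9.86). All 10 were absent at 6 h by definition and present at 12 h. Mad2l1bp takes part in silencing the spindle checkpoint, Smc1a encodes a cohesin subunit, Ddx52 an RNA helicase and Eif3d a subunit of a translation initiation factor. The Mad2l1bp peak had a -log10 q of 22.5 in normoxia, none at 6 h and 17.7, 10.5, 6.42, 10.1 and 13.7 later. The Smc1a region was less lasting. Its -log10 q was 18 in normoxia, 11.7 and 9.49 in the lists of 12 and 24 h and 2.92 in that of 48 h, and the 36 and 72 h lists had no peak.

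Counted by gene, both lists held a promoter peak for 10737 (48.3%) of the 22238 protein-coding genes, only the 6 h list for 346 (1.56%) and only the normoxia list for 642 (2.89%). Among the 20000 strongest peaks of each list the order turned, with 1230 genes at 6 h only and 650 in normoxia only. Such genes can have a weaker promoter peak in the other list, outside its 20000 strongest. All peaks of that rank were also at promoters more often at 6 h, 35.5% against 32.8% in normoxia. Of the 346, 226 (65.3%) had a promoter peak at 12 h, 99 had one in all 5 later lists and 78 in none. Of the 642, 533 (83%) had one at 12 h, 226 had one in all 5 later lists and 52 in none. A gained peak lay within 10 kb of 4091 genes (18.4%) and a lost peak within 10 kb of 8248 (37.1%).

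The oxygen-sensing machinery itself was accessible in both lists. Of 10 genes of HIF subunits and oxygen sensors, 8 had a promoter peak in both, Arnt2 in neither and Epas1, which encodes HIF-2alpha, at 6 h only. The Epas1 promoter peak was weak, with a fold of 3.04, a -log10 q of 2.64 and 14 reads, and was present again at 24 and 36 h only. A gene's promoter value is that of its strongest promoter peak in each list. Hif1a had a fold of 15.6 in normoxia and 11.1 at 6 h. Egln3, a prolyl hydroxylase gene that is itself a HIF target, had 5.88 and 7.92, a log2 ratio of 0.43. Egln2 had 11.1 and 5.64 at promoter peaks that did not overlap. The median ratio of fold enrichment at promoter peaks over all protein-coding genes was -0.36, and of this list -0.55. As plain reads over the genome background, without the constant that fold enrichment adds, the medians were -1.62 and -1.58. The list was then not lower than all genes.

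Genes of glucose uptake and glycolysis kept their promoter peaks. Of 20 genes 19 had one in both lists, with a median log2 ratio of -0.31, and Slc2a3 had one in neither. Aldoc, an aldolase gene, had the highest ratio, 0.29 (fold 5.19 in normoxia and 6.35 at 6 h), and Eno2, an enolase gene, the lowest, -1.09 (9.35 and 4.39). Ldha, which encodes lactate dehydrogenase A, had a promoter fold of 9.6 in normoxia and 5.33 at 6 h, a ratio of -0.85. A gained peak lay 8358 bp from its nearest start, outside the gene and closer to a start of Ldhc, with a fold of 3.76, a -log10 q of 4.19 and 15 reads, and of 8.94, 4.58, 8.13 and 10.1 at 12, 24, 36 and 48 h. Gained peaks lay within 10 kb of 7 of the 20 genes (35%) and lost peaks of 9 (45%), against 18.4% and 37.1% of all genes. The immune markers had 30% and 50%, and so did the fibroblast and endothelial markers. Shares above those of all genes were thus not particular to this list. The strongest gained ones were near Slc2a3, a glucose transporter gene (fold 4.47, closer to a start of Nanog), and in an intron of Hk1, a hexokinase gene (4.22). One in an intron of Pfkfb3, which makes an activator of glycolysis, had 3.33 and no peak in any later list.

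Acid handling showed a similar state. Of 8 genes 6 had a promoter peak in both lists, and Car9, which encodes carbonic anhydrase 9, and Slc16a3, which encodes the lactate exporter MCT4, had one in neither. Gained peaks lay within 10 kb of 4 genes (50%) and lost peaks of 3 (37.5%), against 18.4% and 37.1% of all genes. Both marker lists of other cell types had 30% and 50%. Among them were peaks in introns of Car12 (fold 4, -log10 q 4.88) and Slc4a4 (3.04, 3.54) and one 9457 bp from the nearest Slc16a3 start, closer to one of Ccdc57 (4, 4.88). The Car12 region was in all 5 later lists, with a -log10 q of 3.96, 10.5, 6.42, 10.1 and 11.7. A lost intronic peak of Slc16a1, a lactate transporter gene, had a fold of 7.24 and a -log10 q of 12.1.

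Angiogenic genes had 9 of 13 promoters in both lists and 1, that of Vegfb, in normoxia only (fold 5.71, -log10 q 6.05, 10 reads). Vegfa had a fold of 5.07 in normoxia and 4.44 at 6 h, a log2 ratio of -0.19. Angptl4, which encodes an inhibitor of lipoprotein lipase, gained a peak inside the gene, 426 bp from an annotated start (fold 4.07, -log10 q 9.33, 32 reads). It had a -log10 q of 7.41, 4.04, 3.31, 3.91 and 3.58 in the later lists. Another promoter peak of Angptl4 was lost (fold 3.8), so the gene counts as accessible in both lists. Gained peaks lay within 10 kb of 3 genes (23.1%) and lost peaks of 9 (69.2%), against 18.4% and 37.1% of all genes.

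Of 12 genes of collagen hydroxylases and lysyl oxidases, 7 had a promoter peak in both lists, P4ha2 at 6 h only and Loxl2 in normoxia only. The P4ha2 promoter peak had a fold of 4.47, a -log10 q of 6.32 and 18 reads at 6 h, and a -log10 q of 10.7, 4.97, 5.6, 13.8 and 9.02 at the later times. A second gained peak lay outside the gene, 12827 bp from the nearest P4ha2 start (fold 6.46, -log10 q 16.5, 34 reads). That region was present at 12, 36 and 72 h, with a -log10 q of 3.96, 10.9 and 9.02, and absent at 24 and 48 h. The peak of Loxl2, a lysyl oxidase gene, had a fold of 6.45 and a -log10 q of 8.79 and was present in each later list. Within 10 kb of P4hb, at the promoter of its neighbour Arhgdia, a lost peak (fold 4.89) and a gained peak (3.29) lay side by side, at chr11:120442798-120443114 and chr11:120443203-120443423, and the lists of 12, 24, 36 and 48 h gave both the same peak. Lost peaks lay within 10 kb of 9 of the 12 genes (75%) and gained peaks of 3 (25%), where all genes had 37.1% and 18.4%.

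Other known HIF targets were open in both lists with few exceptions. Of 15 genes of mitophagy, mTOR control and survival, 14 had a promoter peak in both lists, with a median log2 ratio of -0.21. Stc1, which encodes the secreted hormone stanniocalcin 1, had one in normoxia only (fold 4.29, -log10 q 3.48, 8 reads). Bnip3 had a fold of 10.7 and 9.35, and Ndrg1 7.67 and 6.74 with 135 and 120 reads. Gained peaks lay 2252 bp from the nearest start of Ddit4, an inhibitor of mTOR (fold 3.1, -log10 q 5.4), and 1127 bp from that of Ndrg1 (2.46, 5.12), both present in all 5 later lists. The strongest gained and lost regions near the named genes of the 6 lists above were searched for the HIF core near the summit. It was in 7 of 19 gained and 6 of 23 lost regions, in promoters and distal regions together. The gained promoters of P4ha2, with the core, and of Epas1, without it, are not among the 19. Over all peaks the core was in 22.5% of gained, 21.1% of lost and 30.8% of shared 6 h peaks.

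The oxygen-dependent demethylases, chromatin enzymes that use oxygen as a substrate, had 11 of 14 promoters in both lists. A gained peak lay in an intron of Kdm4b (fold 4.94, -log10 q 8.83), and the strongest lost one in an intron of Kdm4c (8.74, 13.2), which was present in all 5 later lists, with 32.2 at 12 h.

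AP-1 and immediate early genes had the highest median log2 ratio of the 17 gene lists, -0.14, against -0.36 for all genes. Over the genome background the order differed, with -1.54 for this list, -1.30 for the angiogenic genes and -1.62 for all genes. Of 18 genes 15 had a promoter peak in both lists. Fosb, an AP-1 subunit gene, had one at 6 h and not in normoxia, with a fold of 3.89, a -log10 q of 8.25 and 30 reads, and a -log10 q of 7.06, 9.78, 6.95, 5.3 and 7.22 later. Egr1 had folds of 3.98 in normoxia and 4.94 at 6 h at promoter peaks that did not overlap, and Fos had 4.36 and 4.56. Klf2 had the lowest log2 ratio, -0.77 (13.7 and 8.03). Gained peaks lay within 10 kb of 8 of the 18 genes (44.4%) and lost peaks of 6 (33.3%), with 18.4% and 37.1% over all genes. Both marker lists of other cell types had 30% and 50%.

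Stress and cell cycle promoters were present in both lists throughout. This held for 15 of 15 genes of the unfolded protein and amino acid response, 12 of 12 of the NRF2 antioxidant response and 15 of 15 of the cell cycle. Median log2 ratios were -0.36, -0.39 and -0.37. Atf4 had the lowest ratio of its list, -0.93 (9.64 in normoxia and 5.06 at 6 h). Slc7a11, the cystine transporter gene, had -1.21 (9.18 and 3.96), and Sqstm1, an autophagy receptor gene, had promoter folds of 2.83 and 4.42 at 2 peaks that did not overlap, the first of them lost. E2f3 had 0.17 and Cdk2 -0.70. The Eif2ak3 gene, which encodes the kinase PERK, had a lost intronic peak with a fold of 7.73 and a gained one with 3.76.

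Of 16 cytokine and chemokine genes, 7 had a promoter peak in both lists and 7 in neither. Those of Il1a (fold 6.23, -log10 q 7.11, 11 reads) and Csf2 (5.19, 5.02, 9 reads), which encode interleukin 1 alpha and GM-CSF, were open in normoxia only. Il1a was present again at 12 h (-log10 q 3.96) and in no later list, and Csf2 at 12, 24 and 36 h. Of the epithelial genes Krt7 had the highest ratio, 0.61 (3.08 and 4.7), and Krt19 the lowest, -0.90 (10.4 and 5.58). Of 13 genes of the mesenchymal transition 8 had a promoter peak in both lists. Cdh2 had a gained intronic peak (fold 5.17) and no promoter peak. Among the 13 transcription factors the study discusses, Nfix had a promoter peak at 6 h only (fold 3.01, -log10 q 3.48, 19 reads), together with a lost intronic peak (7.43). Nfia had a gained peak 67 bp from a start (4.47, 6.32), Tead1 a lost intronic one (7.43), and the Foxp1 promoter had a log2 ratio of 0.11. The promoter ratios of these factors went from -0.93 to 0.17, with a median of -0.41 against -0.36 for all genes. Over the genome background the medians were -1.59 and -1.62.

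Most shared regions had a lower fold enrichment at 6 h. Over 39947 pairs of peaks that overlapped 1 to 1, the median fold was 7.71 in normoxia and 5.41 at 6 h, with a median log2 ratio of -0.41 (percentiles 5 and 95 at -1.11 and 0.19), and 12.4% of pairs were higher at 6 h. As plain reads over the genome background, without the 1 that fold enrichment adds to reads and background, the median log2 ratio was -1.51. The 2 measures thus differ in more than the background used. These pairs had a median of 29 reads at the summit at 6 h and 23 in normoxia. The genome-wide background was 3.25 and 0.926 reads. A lower fold here is therefore not a lower read count, and whether accessibility fell was not tested. Both measures move with the depth and background of each list, so a single region is best read against the median. Promoter pairs had a median of -0.35 and distal pairs of -0.43. Among the 15196 pairs in the 20000 strongest of both lists the median was -0.43, and 3.8% were higher at 6 h.

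**Figure D5:**
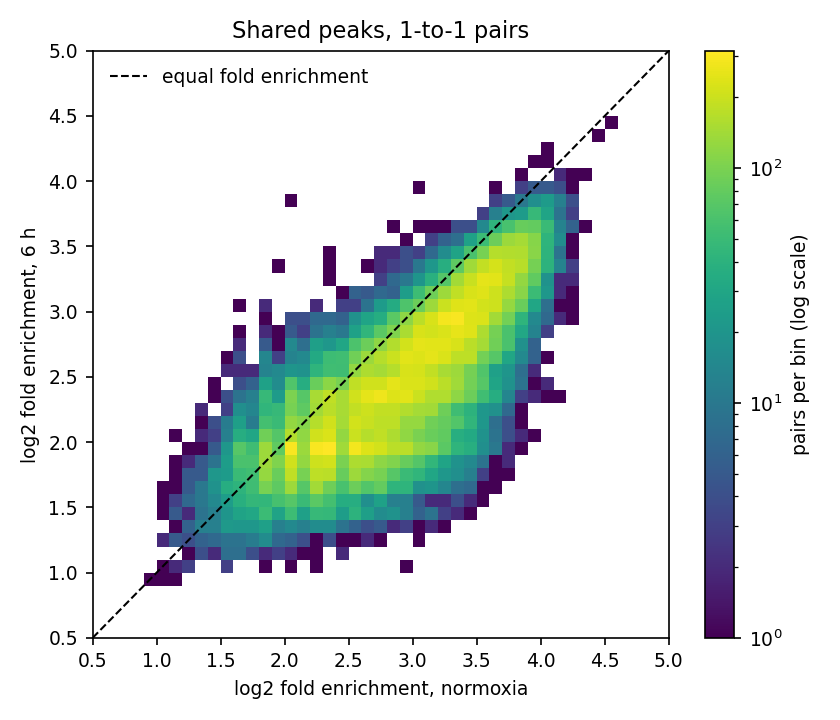
Log2 fold enrichment of 39947 1-to-1 pairs of shared peaks in normoxia (x axis) and at 6 h (y axis), coloured by the number of pairs per bin on a log scale; the dashed line marks equal values. Most pairs lie under the line, with a median log2 ratio of -0.41, and 12.4% lie above it.

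The pairs at the ends of this range were few. The lowest ratios among the strong pairs were in an intron of Fam19a1 (-1.60, fold 17.1 in normoxia and 5.64 at 6 h), 557637 bp from the nearest start, that of Ryr2 (-1.54), near Xkr9 (-1.51) and Olfm2 (-1.44) and at the promoter of Rfc1, which encodes a subunit of the clamp loader of DNA replication (-1.42, 16.3 and 6.11). The highest were near 1700012B15Rik (0.90, 8.05 and 15) and Gm1631 (0.59), in the region nearest to Vcan, a proteoglycan gene (0.52), near Alx1 (0.48) and at the promoter of Bcl2l2, a survival gene of the Bcl-2 family (0.43, 8.09 and 10.9). The 5 lowest had folds of 10.2, 12, 12.1, 13.4 and 15.3 at 12 h, each above its 6 h value. These pairs were picked for a low value at 6 h, so higher values in another list can follow from that choice alone. The 12 h list also had a higher median fold over all its peaks than the 6 h list. Of the 5 highest, those near 1700012B15Rik and Gm1631 had lower folds at 12 h than at 6 h, and the others higher ones. Whether any of these regions changed between 6 and 12 h was not tested. Over the genome background the 5 highest had log2 ratios of -0.16, -0.67, -0.08, 0.01 and -0.50.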

How the data were processed

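Bulk ATAC-seq of fixed 4T1 cells was analysed from peak lists, 1 for each of 7 groups of 2 samples. As the study's methods and the processing notes of the submitters state, paired reads were trimmed by the authors and mapped to mm9 (Bowtie2 2.1.0). Properly paired, well-mapped reads were kept, and PCR duplicates (Picard 1.79) and mitochondrial reads were taken out. Both samples of a group were then merged for narrow peak calling in MACS2 (version not given in the sources used here). The deposited columns used were the interval, the fold enrichment, the −log10 p-value, the −log10 q-value and the summit. The fold enrichment is a ratio of summit to local background, with 1 added to each.

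Unique intervals were used, each with its summit of highest fold enrichment. Whole reads at the summit and the local background were solved from fold and p-value, with a largest error of 1.9e-04 in −log10 p for these 2 lists. Any shared base counted as overlap (bedtools 2.31.1 gave the same counts). Values were computed with scipy 1.17.1, pandas 2.3.3 and numpy 2.4.6 in Python 3.11.15, and drawn with matplotlib 3.10.9. Locations came from the GENCODE annotation of mm9. Promoters were intervals within 1 kb of any start of a protein-coding gene, gene windows reached 10 kb beyond the gene body, and all other locations followed the summit. Shares have exact (Clopper-Pearson) 95% intervals over peaks, which cover counting error only, since each group is 1 pooled list without replicate error. Median summit depth was 16 reads in normoxia and 26 at 6 h. Overlap, the solving of reads and a string search were tested on simulated data. The simulated reads came from the same formula that was solved. Locations, gene assignment and pairing were not tested in this way.

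Members, 17 gene lists and 14 strings were chosen with earlier results of these data known. Regions named were the 10 strongest gained and lost peaks, all gained or lost peaks in the 10000 strongest, the 10 strongest gained and lost promoters, the 5 shared pairs at each end of the ratio, list genes with a promoter peak in 1 list, and list genes with the strongest gained or lost peak or the extreme ratio. Some items are not reported here. No test was run, because each group is 1 pooled list. Thresholds, overlap rules, the number of strongest peaks and the promoter distance were varied.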

Additional observations from a re-analysis of the deposited data

How the results depend on the processing

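No paired analysis was possible because each list pools both replicates, and for the same reason no replicate could be left out. The share of 6 h peaks gained was 14.2% in the full lists, 12% at a -log10 q of at least 5, 16.4% when 50% of a peak had to be covered and 13.3% when a peak within 250 bp counted as shared. The share of normoxia peaks lost was 30.4%, and 29.8% at a -log10 q of at least 2, 26.7% at 5, 34% at 50% coverage and 29.3% within 250 bp. A -log10 q of 2 (gained) and autosomes alone (both) moved the shares by less than their counting intervals. Among the 20000 strongest, the shares specific to 6 h and to normoxia, 21.8% each, were 28.8% each for the 10000 strongest, 20.2% and 20.9% for the 40000 strongest, 17.6% and 17.8% when ranked by -log10 q, and 0.54% and 2.5% against the full other list. The promoter share of gained peaks, 12.3%, was 24% within 5 kb, 16% at a -log10 q of at least 5, 14% at 50% coverage and 28.2% among the 20000 strongest. That of lost peaks, 7.99%, was 18.8%, 10.1%, 9.22% and 15.8% under the same settings. The promoter share of the whole list was also higher at 6 h than in normoxia, 25% against 21.3% in the full lists, 34.4% against 30.9% within 5 kb, 28.8% against 25.2% at a -log10 q of at least 5 and 35.5% against 32.8% among the 20000 strongest. Genes with a promoter peak at 6 h only, 346, numbered 1230 among the 20000 strongest, where those in normoxia only, 642, numbered 650, so that the order turned. Weaker promoter peaks of the other list did not count in that setting. Within 5 kb the normoxia-only genes numbered 1048. The other settings left both gene counts within 1.5 times. The cause of these shifts was not tested. Median summit depth, 16 reads in normoxia and 26 at 6 h, limits the precision of every single peak.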
